A study of Mus musculus with 8 samples.

Results

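The mouse miRNAs mmu-miR-155, mmu-miR-146a, mmu-miR-146b and mmu-miR-21, written below without their prefix, are known from earlier work to be induced by the transcription factor NF-kB or by inflammation. They were taken by name and not by a measured value, although earlier results of these data were known, and are 4 of the 1040 mouse miRNAs in the deposited array table. RNA came from 3 cell populations sorted by flow cytometry from the thymus of NOD wildtype mice, all female, 4 weeks old and untreated as far as the labels say. CD45+ cells (3 arrays) were sorted as CD45+ and EpCAM-, and are the hematopoietic cells of the organ. Cortical thymic epithelial cells (cTECs, 2 arrays) and medullary thymic epithelial cells (mTECs, 3 arrays) were both CD45-, EpCAM+ and MHC II+, and were told apart by the surface protein Ly51, present on cTECs and absent on mTECs. Each replicate was 1 pool of thymi from 10 to 12 mice, and its RNA was labeled with Cy3 and hybridized to 1 of 8 arrays on 1 slide. The question was how far miRNAs of this kind differ between the medullary cells, the cortical cells and the CD45+ cells of an unchallenged thymus.

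NF-kB is a family of dimeric transcription factors that are held in the cytoplasm by inhibitor proteins and released upon signals from Toll-like receptors and receptors of the TNF family. In the thymus, RANK, CD40 and the lymphotoxin beta receptor signal through NF-kB in epithelial cells, and mice that lack the NF-kB subunit RelB do not form a normal medulla. miR-155 and miR-21 are best known for lowering proteins that restrain signaling or growth, whereas miR-146a and miR-146b lower adaptors of the Toll-like receptor pathway and so act as a brake on NF-kB itself. The arrays measured mature miRNAs only and did not measure NF-kB.

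The mature sequences are shown because they define what each probe could detect and which of the 4 can act on shared targets. They are the RefSeq sequences of build GRCm38.p6, written 5′ to 3′, with the seed (bases 2 to 8, the part that pairs with target transcripts) in capitals.
miR-155: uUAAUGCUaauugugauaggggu
miR-146a: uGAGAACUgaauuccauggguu
miR-146b: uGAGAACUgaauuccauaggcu
miR-21: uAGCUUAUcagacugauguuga

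miR-146a and miR-146b shared the seed GAGAACU, whereas miR-155 (UAAUGCU) and miR-21 (AGCUUAU) shared theirs with none of the other 3. Over the 22 bases of miR-146a and miR-146b, 20 were the same. The differences were G18A and U21C, counted from 1 at the 5′ end of miR-146a, with the base of miR-146a first.
miR-146a, differing bases in capitals: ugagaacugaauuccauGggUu
miR-146b, differing bases in capitals: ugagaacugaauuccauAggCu
Each of the 4 probes held the full complement of its miRNA, and how far the miR-146a probe binds miR-146b, or the reverse, was not tested. miR-155 lies at chr16:84714143-84714165 on the plus strand, within the long noncoding RNA gene Mir155hg (chr16:84713023-84715245). miR-146a lies at chr11:43374435-43374456 on the minus strand, and no other gene of the RefSeq table spans it. miR-146b lies at chr19:46342790-46342811 on the plus strand, within the span of the long noncoding RNA gene Gm36493. miR-21, listed in RefSeq as mmu-miR-21a-5p, lies at chr11:86584120-86584141 on the minus strand, within the span of the protein-coding gene Vmp1.

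The arrays differed in brightness. As deposited, the 75th percentile of the processed signal over the 65 miRNAs described below was 1364 to 2910 on cTEC arrays. On CD45+ and mTEC arrays it was 4213 to 11503. The number of mouse miRNAs well above background, a flag that the scanner software gives each spot, was 98 and 122 on the cTEC arrays, 169 to 229 on the CD45+ arrays and 236 to 325 on the mTEC arrays. To set the arrays on a common scale, the 75th percentile was taken over the 65 miRNAs that passed this flag on each of the 8 arrays and made equal, and the values below are these scaled signals in arbitrary units. Signals under 621.0 were set to that floor before the test, because on cTEC replicate 2 no lower signal was well above background. Scaling by brightness cannot tell less of a miRNA per cell from fewer cells that hold it. A miRNA was tested with limma, and called at a Benjamini-Hochberg adjusted p under 0.05 over the 309 mouse miRNAs tested.

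**Figure D1:**
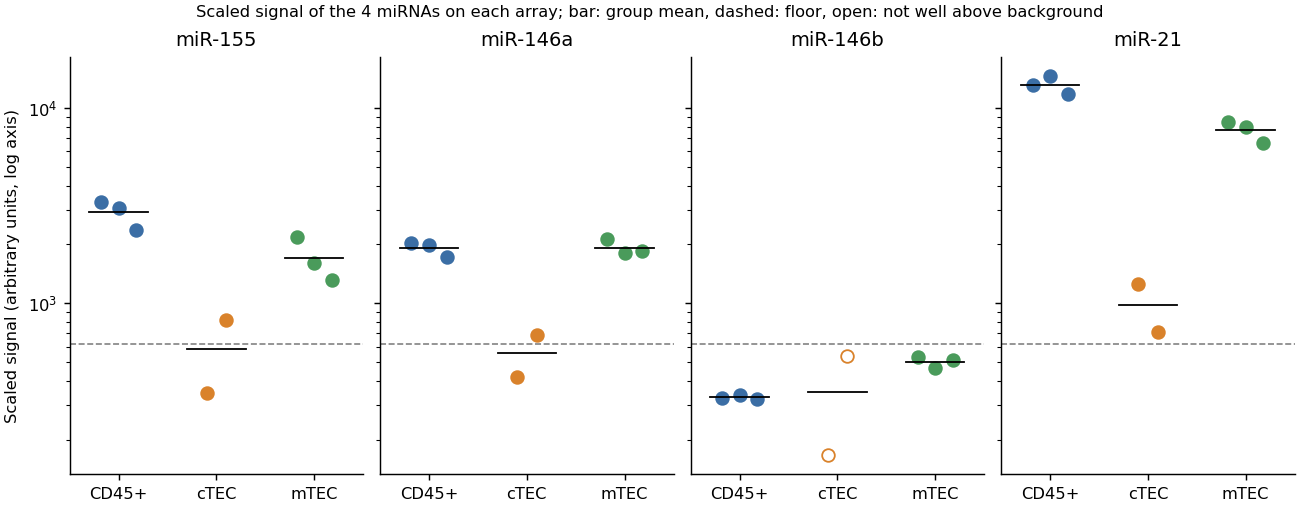
Scaled signal (arbitrary units, log axis) of each of the 4 miRNAs on every array, by cell population. Points are arrays, bars are group means, open points are not well above background and the dashed line is the floor of 621.0. Both cTEC arrays lie below all CD45+ and mTEC arrays for miR-155, miR-146a and miR-21, while miR-146b lies under the floor on all 8 arrays.

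The markers of the labelled cell types were clear in mTECs and CD45+ cells and less so in cTECs. The summed signal of 7 epithelial miRNAs (the miR-200 family, miR-205 and miR-203) was 36800 to 39060 in mTECs, 4442 to 8620 in cTECs and 623.4 to 703.5 in CD45+ cells. All 7 were well above background on every mTEC array, and 5 and 3 of the 7 were on cTEC replicates 1 and 2. The summed signal of 4 lymphoid miRNAs (miR-150, miR-181a and both strands of miR-142) was 20100 to 24170 in CD45+ cells, 2713 to 4621 in cTECs and 1768 to 2325 in mTECs. miR-126-3p, a miRNA of endothelial cells, was at 2615 and 1013 in cTECs, above the 285.3 to 502.9 of mTECs and the 188.7 to 259.9 of CD45+ cells. The summed signal of 4 mesenchymal miRNAs (miR-143, miR-145, miR-199a-3p and miR-214) was 6237 to 6658 in mTECs, 2204 to 5106 in cTECs and 170.4 to 282.7 in CD45+ cells. miR-143 and miR-145 carried this sum, with means of 3219 and 2909 in mTECs. miR-214 was well above background on 2 mTEC arrays only. miR-199a-3p was on no array, with means of 88.8 in mTECs and 290.7 in cTECs. Of the epithelial miRNAs, miR-200a, miR-200b, miR-429 and miR-203 were well above background on no CD45+ array. miR-205 was on 1 CD45+ array, and miR-141 and miR-200c were each on 2. Of the lymphoid miRNAs, both strands of miR-142 were well above background on no cTEC array, and miR-150 and miR-181a on 2 of 2. In mTECs miR-142-3p, miR-150 and miR-181a were well above background on 3 of 3 arrays and miR-142-5p on 2. miR-223, a miRNA of myeloid cells, was so on 3 CD45+ arrays, 2 mTEC arrays and no cTEC array. Of the erythroid miRNAs miR-451 and miR-144, only miR-144 was, on 1 mTEC array. The part of other cells in the results below was not tested.

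miR-21, known for lowering the translation inhibitor Pdcd4, had the widest range of the 4 between cell populations. Its scaled signal was 13048, 14579 and 11860 on the 3 CD45+ arrays. It was 8442, 7948 and 6621 on the mTEC arrays and 1249 and 710.0 on the cTEC arrays. The order was CD45+, then mTEC, then cTEC, with no overlap between any of the 3 groups.

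In cTECs miR-21 was called lower than in CD45+ cells, with a log2 fold change of -3.80 (SE 0.25, adjusted p = 7.76e-05 in limma), which is a 13.4-fold ratio of the mean signals. It was called higher in mTECs than in cTECs by 3.02 (SE 0.25, adjusted p = 0.000329), a 7.83-fold ratio. Among the miRNAs above the floor on every array of both groups, it had the lowest log2 fold change of 45 in cTECs against CD45+ cells and the highest of 52 in mTECs against cTECs. This ranking leaves out miRNAs that lay under the floor in cTECs, among them miR-34a, whose log2 fold change in mTECs against cTECs was larger (3.4). Both calls were kept under all 24 alternatives, with log2 fold changes from -5.97 to -2.51 and from 1.60 to 4.63. All 5 spots of miR-21 were well above background on cTEC replicate 1 and 3 of 5 on cTEC replicate 2.

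Between mTECs and CD45+ cells the difference in miR-21 was near the threshold. The mean signal was 7670 ± 942 (SD, n = 3) in mTECs and 13163 ± 1363 (SD, n = 3) in CD45+ cells. The log2 fold change was -0.78 (95% interval -1.33 to -0.24), with an adjusted p of 0.0530 in limma, so that miR-21 was not called although every mTEC array lay below every CD45+ array. It was called under 13 of the 24 alternatives. Among these were the fit of these populations without cTECs (adjusted p = 0.00679 in limma) and the deposited quantile normalized table (-0.92, adjusted p = 0.0154 in limma). It was not called when quantile normalization was done here (-0.88, adjusted p = 0.212 in limma). Nor was it called with the 75th percentile over all mouse miRNAs (-1.62, adjusted p = 0.0834 in limma). Within each of the slide rows the difference was -0.71.

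miR-155, made from the transcript once named BIC and known for lowering the cytokine signaling inhibitor Socs1 and the phosphatase Inpp5d, followed the same order. Its scaled signal was 3315, 3064 and 2367 in CD45+ cells, a mean of 2915 ± 492 (SD, n = 3). It was 2184, 1599 and 1308 in mTECs, a mean of 1697 ± 446 (SD, n = 3). In cTECs it was 345.3 and 820.4, the first of them under the floor. The groups did not overlap, although the highest mTEC array came close to the lowest CD45+ array.

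miR-155 was lower in cTECs than in CD45+ cells by limma, with a log2 fold change of -2.02 (SE 0.26, adjusted p = 0.00144) and a 5.0-fold ratio of the mean signals. This call was kept under all 24 alternatives (-4.57 to -1.02). It was higher in mTECs than in cTECs by 1.22 (SE 0.26, adjusted p = 0.0190). That call was lost under 5 of 24 alternatives, among them quantile normalization (1.51, adjusted p = 0.118). Without cTEC replicate 1 the difference was 1.02 with an adjusted p of 0.0804, and without mTEC replicate 2 it was 1.25 with an adjusted p of 0.0559. Of the 5 spots of miR-155, 3 and 4 were well above background on cTEC replicates 1 and 2.

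In mTECs against CD45+ cells miR-155 had a log2 fold change of -0.80 (95% interval -1.37 to -0.22) and an adjusted p of 0.0598 in limma, and was not called. It passed the threshold under 6 of 24 alternatives. Among them was the fit without mTEC replicate 1, the highest of the mTEC arrays (-0.997, adjusted p = 0.0234 in limma). The difference was smaller, and not called, with quantile normalization (-0.49, adjusted p = 0.853 in limma) and with the deposited table (-0.23, adjusted p = 0.182 in limma). Within slide row 1 the difference was -0.55 and within row 2 it was -0.71.

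miR-146a, which lowers the adaptor proteins Traf6 and Irak1, was about as bright in mTECs as in CD45+ cells. Its scaled signal was 2032, 1983 and 1716 in CD45+ cells, a mean of 1910 ± 170 (SD, n = 3). In mTECs it was 2136, 1800 and 1850, a mean of 1929 ± 182 (SD, n = 3). The arrays of these populations overlapped, and the cTEC arrays, at 418.6 and 686.9, lay below all of them.

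The log2 fold change of miR-146a in mTECs against CD45+ cells was 0.01 with a 95% interval of -0.24 to 0.27 (adjusted p = 1 in limma). The sign of this small value depended on the scaling: it was -0.83 (adjusted p = 0.188 in limma) when each array was scaled to its 75th percentile over all mouse miRNAs, and 0.35 was the highest value of any alternative. Against CD45+ cells miR-146a was lower in cTECs by limma, with a log2 fold change of -1.51 (SE 0.12, adjusted p = 0.000154) and a 3.46-fold ratio of the mean signals. In mTECs it was higher than in cTECs by 1.52 (SE 0.12, adjusted p = 0.000255), a 3.49-fold ratio. Both calls were kept under all 24 alternatives. cTEC replicate 1 was under the floor for miR-146a, and with the lowest of the 4 floors tried (67.0) the differences were -1.85 and 1.86.

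miR-146b, which shares its seed with miR-146a, was dim. Its scaled signal was 327.0, 339.8 and 323.1 in CD45+ cells, a mean of 330 ± 8.74 (SD, n = 3), and 5 of 5 spots were well above background on each of these arrays. It was 527.2, 467.7 and 510.2 in mTECs, a mean of 502 ± 30.6 (SD, n = 3), again with all 5 spots well above background. The mTEC signals lay above the CD45+ signals with no overlap, a 1.52-fold ratio of the means.

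All 6 of these signals lay under the floor of 621.0, and the main test of miR-146b in mTECs against CD45+ cells therefore gave a log2 fold change of 0 (adjusted p = 1 in limma). With the second highest floor of 342 it was 0.52 (adjusted p = 0.0451). With the lowest floor of 67.0 it was 0.60 (SE 0.41, 95% interval -0.35 to 1.54, adjusted p = 0.258 in limma). With that floor and without cTECs, an alternative chosen after seeing the data, the same value had an SE of 0.12 and an adjusted p of 0.00527 in limma. The call thus depended on the floor and on which arrays entered the fit.

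In cTECs miR-146b did not stand well above background, with 0 and 1 of 5 spots so marked and scaled signals of 166.9 and 537.3. Its level there is therefore only bounded. The lowest signal well above background was 342.3 on cTEC replicate 1 and 621.0 on cTEC replicate 2, and since the means of mTECs and of CD45+ cells do not exceed the second of these, no fold against cTECs is read from its fitted values. The log2 fold changes of miR-146a and miR-146b in mTECs against CD45+ cells, 0.01 and 0.60 with the lowest floor, were not tested against each other.

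**Figure D2:**
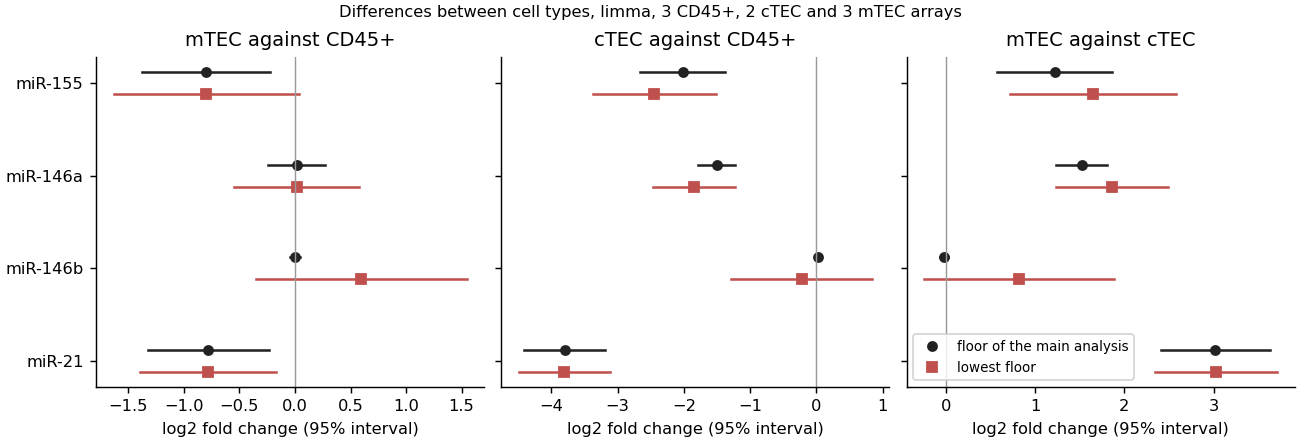
Log2 fold change of each miRNA in the 3 comparisons, with the 95% interval of limma, under the floor of 621.0 (black circles) and the lowest floor of 67.0 (red squares). The intervals of miR-155, miR-146a and miR-21 in cTECs against CD45+ cells lie wholly below 0 under both floors. miR-146b in mTECs is at 0 against CD45+ cells under the first floor and at 0.60 under the lowest.

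Counted together, 0 of the 4 miRNAs were called in mTECs against CD45+ cells, where 23.9% of the 309 miRNAs tested were called (9.06% higher and 14.9% lower). miR-146b could not be called there, because all its signals in both groups were set to the floor, and miR-21 and miR-155 were near the threshold. The median log2 fold change of the 4 was -0.39 and that of all tested miRNAs was 0. Of the 309, 83 lay at the floor on every array, so that their log2 fold change was 0 and they could not be called. None of the 4 was among these 83. The shares and medians over all tested, here and below, include the 83. Of the 71 miRNAs above the floor on every array of both groups, 44 had a log2 fold change below 0 and the median was -0.37. miR-155 and miR-21 were the 22nd and 24th lowest of these 71, in the lower part of the order but not at its end.

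In cTECs against CD45+ cells 3 of the 4 miRNAs were called, all lower, where 30.7% of all tested were called and 20.1% were lower (10.7% higher). The median of the 4 was -1.76 and that of all tested was 0. Over the 45 miRNAs above the floor on every array of both groups it was 0.13, and of the 4 only miR-21 was among them. In mTECs against cTECs the same 3 miRNAs were called higher, where 22.7% were called, 16.2% higher and 6.47% lower. The median was 1.37 over the 4 and 0 over all tested. Over the 52 miRNAs above the floor on every array of both groups it was -0.21, and of the 4 only miR-21 was among them. The 3 comparisons share arrays, so that the count of calls in mTECs against cTECs is not independent of the other counts. Under the lowest floor the shares called rose to 45.3%, 72.5% and 41.7%, the same 3 miRNAs were called in both comparisons with cTECs, and miR-21 was called lower in mTECs than in CD45+ cells (adjusted p = 0.0418 in limma).

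**Figure D3:**
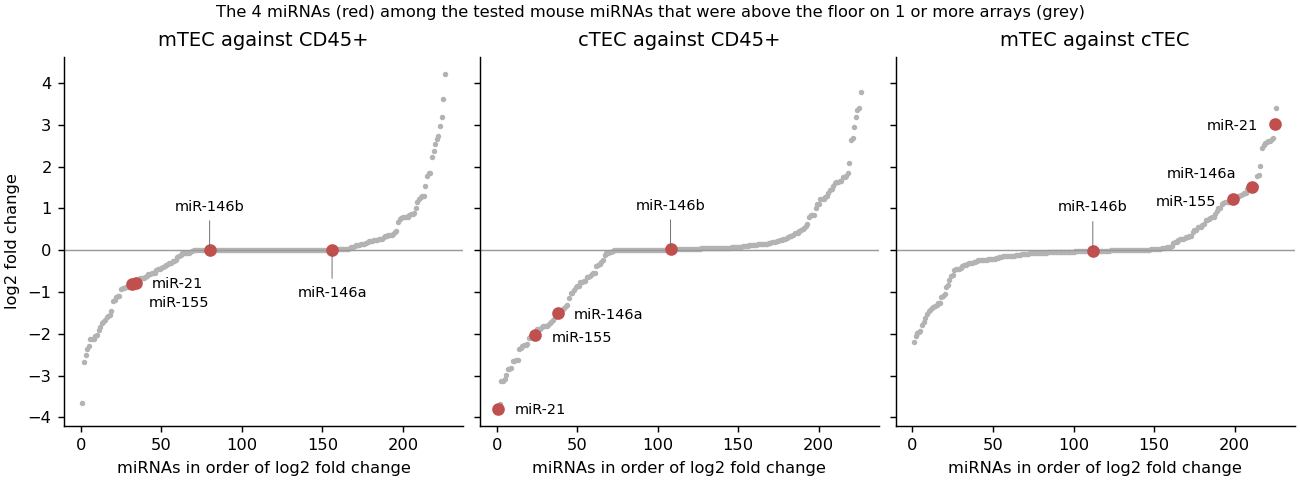
Log2 fold change of the tested mouse miRNAs that were above the floor on 1 or more arrays, in order within each comparison, with the 4 miRNAs in red. miR-21 lies at the lower end for cTECs against CD45+ cells and near the upper end for mTECs against cTECs. The place of a miRNA on the flat stretch at 0 is arbitrary.

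The low cTEC values of these miRNAs came with dim arrays. Before scaling, the signal of miR-21 was 629 and 168 on the cTEC arrays, 5798 to 16814 on the mTEC arrays and 17090 to 28796 on the CD45+ arrays. Scaling multiplied the cTEC arrays by 1.99 and 4.23 and the other arrays by 0.502 to 1.37. After it the cTEC arrays remained below the rest for miR-21, miR-155 and miR-146a. The part of the dim arrays in these results was not tested.

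**Figure D4:**
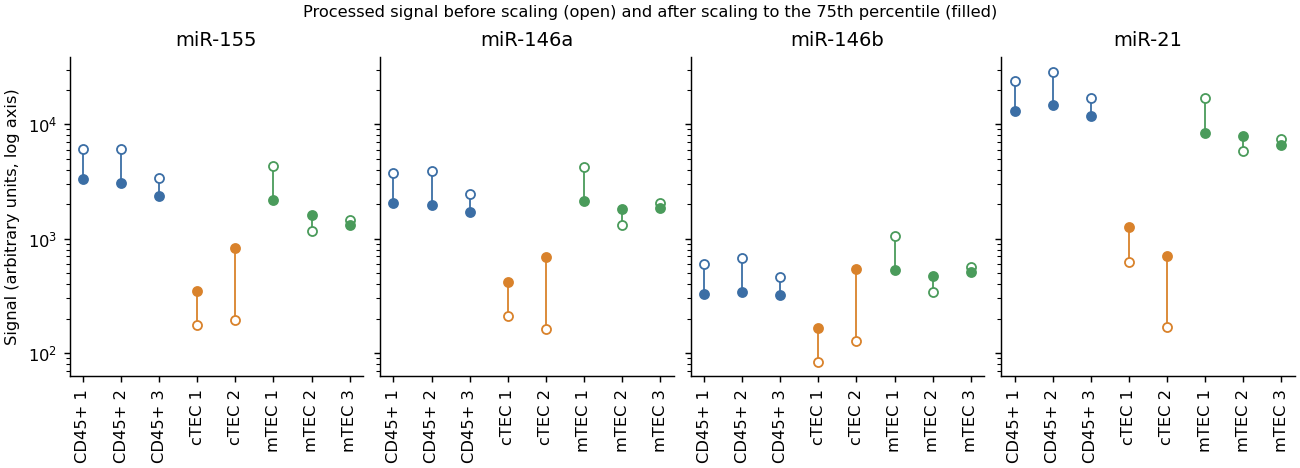
Signal of each miRNA on every array (arbitrary units, log axis) before scaling (open) and after scaling to the 75th percentile (filled). The cTEC arrays move up and most others move down, and cTECs stay lowest for miR-155, miR-146a and miR-21.

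The opposite strands of the hairpins (miR-155*, miR-146a* and miR-146b*) were well above background on no array, and miR-21* was on 1 of 8, a CD45+ array. None of them reached the 2 arrays needed for a test. miR-590-5p, the other mouse miRNA of the table with the seed of miR-21, was well above background on no array.

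Other miRNAs reported to rise upon NF-kB or Toll-like receptor activation did not share 1 direction. Of a list of 13, 12 were on the array and 11 were tested, 4 of which lay at the floor on every array. In mTECs against CD45+ cells 2 were called higher and 3 lower, where 9.06% and 14.9% of all tested were, with a median of 0 over the list and 0 over all tested. miR-125b-5p, at 282 to 374 in CD45+ cells and 5159 to 6227 in mTECs, was higher by 3.20 (adjusted p = 5.98e-05 in limma), and by 4.10 with the lowest floor, since its CD45+ signals lay under 621.0. miR-34a, a target gene of p53, was at 1731 to 1920 in CD45+ cells and 5487 to 8139 in mTECs, and was higher by 1.84 (adjusted p = 0.000166 in limma).

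The 3 lower in mTECs were miR-221 (-0.40), miR-222 (-0.26) and miR-223 (-0.44), the last a miRNA of myeloid cells. In cTECs against CD45+ cells 1 was called higher, miR-125b-5p (3.41), and 4 lower, miR-221, miR-222, miR-223 and miR-34a (-1.56), where 10.7% and 20.1% of all tested were. In mTECs against cTECs 2 were called higher, miR-34a (3.4) and miR-221, and 0 lower, where 16.2% and 6.47% were. The median was 0 in both comparisons with cTECs, over the list and over all tested. In cTECs miR-221, miR-222 and miR-223 were well above background on no array and miR-34a on 1 of 2, so that their levels there are only bounded or rest on 1 array.

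The size and some calls of this list depended on the floor. With the lowest floor 5 were called higher and 3 lower in mTECs against CD45+ cells, 3 higher and 6 lower in cTECs against CD45+ cells, and 4 higher and 0 lower in mTECs against cTECs, where 45.3%, 72.5% and 41.7% of all tested were called. The medians of the list were then 0.31, -0.95 and 0.37, and those of all tested 0.45, 0.86 and -0.33. In mTECs against CD45+ cells miR-125a-5p (3.45, adjusted p = 7.03e-05 in limma), miR-9 and miR-210 were then among those called higher. miR-125a-5p and miR-9 were well above background on no CD45+ array, so that the size of their differences rests on the floor. In limma miR-221 (adjusted p = 0.131) and miR-222 (adjusted p = 0.151) were no longer called. miR-132 (-1.74, adjusted p = 0.0064 in limma) and miR-301a (-0.95, adjusted p = 0.026 in limma) were then called lower, as was miR-223 (-2.71). miR-132 was well above background on no mTEC array, so that the size of its difference also rests on the floor.

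Of 6 miRNAs reported to act on proteins of the NF-kB pathway, 4 were tested. miR-15a (-0.73), miR-181b (-2.13) and miR-223, which is in both lists, were called lower in mTECs than in CD45+ cells, 3 of 4 where 14.9% of all tested were lower. The mTEC signals of miR-181b lay under 621.0, and with the lowest floor its log2 fold change was -3.45. miR-16 was not called, at a log2 fold change of -1.09 with an adjusted p of 0.0754 in limma, but was with the lowest floor (adjusted p = 0.0323). All 4 were lower in cTECs than in CD45+ cells, where 20.1% of all tested were, with a median of -1.29 over the list and 0 over all tested. miR-15a and miR-223 were well above background on no cTEC array and miR-181b on 1. miR-16 (1.55) was the 1 of 4 called between mTECs and cTECs, higher in mTECs. Of all tested, 22.7% were called there, 16.2% higher and 6.47% lower. With the lowest floor miR-181b was also called, lower in mTECs (-1.51, adjusted p = 0.00362 in limma), where 41.7% of all tested were called. Both lists were put together with earlier results of these data known.

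The miRNAs most like each of the 4 over the 8 arrays were sought among the miRNAs well above background on every array, by Pearson's r of their log2 values. The points share the arrays and their scaling and fall into 3 cell populations, so that r mostly restates differences between populations. miR-155 was most like let-7i (r = 0.970), miR-1944 (0.959) and let-7g (0.951). miR-146a was most like miR-21 (0.945), miR-1274a (0.889) and miR-155 (0.885).

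miR-21 was most like miR-26a (0.960), miR-24 (0.950) and miR-16 (0.950). The order depended on the floor: with the lowest floor miR-1944 (0.978) came before let-7i (0.914) for miR-155, and miR-1274a (0.926) before miR-21 (0.913) for miR-146a. For miR-146b no likeness could be read, because its mean over spots set to the floor rose above it on 1 array only, cTEC replicate 2, where at least 1 spot but not the mean signal lay over 621.0. With the lowest floor in its place, r of miR-146b was 0.560 with miR-146a, 0.438 with miR-155 and 0.178 with miR-21, lower than the 0.881 to 0.922 among the other 3.

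**Figure D5:**
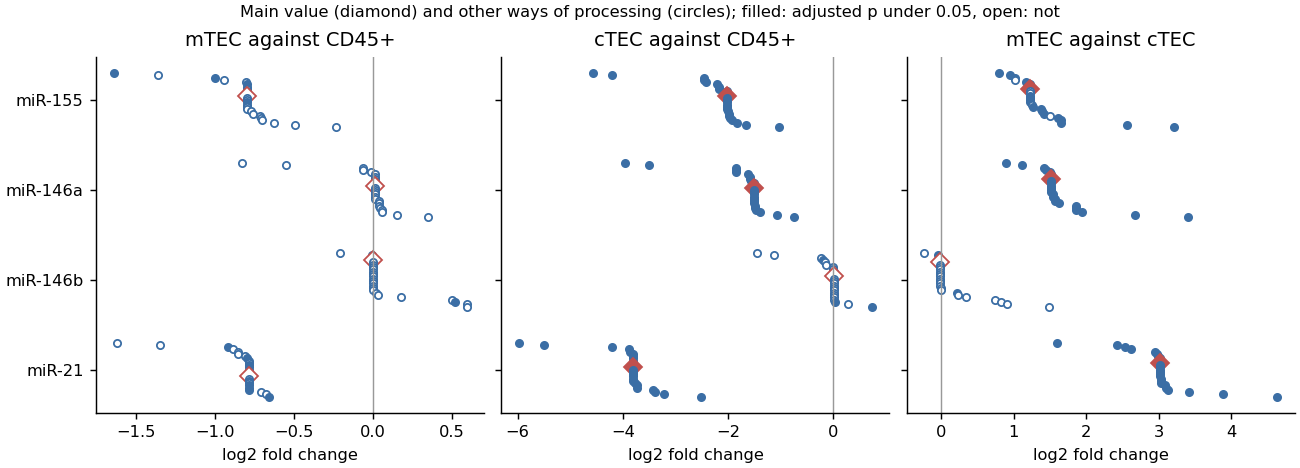
Log2 fold change of each miRNA under the main analysis (diamonds) and the other ways of processing (circles), filled where the adjusted p was under 0.05. For miR-155, miR-146a and miR-21 in cTECs against CD45+ cells every symbol is filled and below 0. For miR-155 and miR-21 in mTECs against CD45+ cells all lie below 0 and only some are filled.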

How the data were processed

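Mature miRNAs were measured on 8 single-color arrays (3 CD45+, 2 cTEC, 3 mTEC). The authors deposited, for each array, the scanner's spot intensity (raw, background and background-subtracted) and, for mouse miRNAs, quantile normalized log2 intensity in 1 table. The file headers name Feature Extraction 10.7.3.1, another version than the methods text, and the submitters' processing notes name limma. The table also holds the authors' fold changes, p-values, FDR and log odds, which were not used here. It names no genome build.

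From the processed signal, outlier spots (1.09% to 1.85%) were left out. No spot was saturated. Of the 3688 probes that were not controls, the 2648 outside the mouse table were not analysed here. Each array was scaled as described above, spots under the floor of 621.0 were set to it, log2 was taken, and the probe's value was the mean over its 5 spots. A miRNA entered the test if most spots were well above background on 2 or more arrays, and 83 of the 309 were at the floor on all arrays and entered the adjustment as not different. One model of 3 group means was fitted to all 8 arrays with lmFit and eBayes (R 4.3.3, limma 3.58.1) with Benjamini-Hochberg adjustment. The steps were run on simulated data for mTECs against CD45+ cells only, and the comparisons with cTECs were not simulated. The number of arrays limits the precision.

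The 4 miRNAs, the lists and the floor were chosen with earlier results of these data known. The miRNAs named were the 4, their opposite strands, those sharing a seed, the called members of both lists, and the 3 most like each. Of the lists, miR-212 was not in the table. RefSeq mature sequences were matched by name and by probe, and 829 of the 1040 mouse probes held the complement of one. Alternatives were other scalings (all mouse miRNAs, quantile, none, the deposited table), normexp with an offset of 50 on the median spot signal, floors of 342, 129 and 67.0, other filters, the median of the spots, the compared groups alone, a trend in intensity, replicate number or slide row as a block, and each array left out.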

Additional observations from a re-analysis of the deposited data

Results flagged for a closer look

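The difference from CD45+ cells was not the same in mTECs as in cTECs for 3 of the 4 miRNAs. The difference in mTECs minus that in cTECs was 3.02 on the log2 scale for miR-21 (-0.78 and -3.80), 1.52 for miR-146a (0.01 and -1.51) and 1.22 for miR-155 (-0.80 and -2.02). Both differences share the CD45+ arrays, and the test of each is the comparison of mTECs with cTECs. The adjusted p-values in limma were 0.000329, 0.000255 and 0.0190. In that comparison 22.7% of the 309 miRNAs tested were called, 16.2% higher.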

How the results depend on the processing

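All values here are log2 fold changes with limma's adjusted p unless called counts. miR-155, miR-146a and miR-21 in cTECs against CD45+ cells, and miR-146a and miR-21 in mTECs against cTECs, kept direction and call under all 24 alternatives. Leaving out each array in turn gave -2.22 to -1.82, -1.62 to -1.40 and -4.20 to -3.40 in the first comparison and 1.41 to 1.63 and 2.62 to 3.42 in the other for miR-146a and miR-21. In mTECs against CD45+ cells, miR-155 was called under the 75th percentile over all mouse miRNAs (-1.64, 0.0406). At -0.80 it was called with a filter on all 8 arrays (0.0165), a filter on every array of 1 group (0.0373) and a trend in intensity (0.0486). The 2 groups alone at the lowest floor, added after seeing the data, also called it at -0.80 (0.0262). It was not called with quantile normalization (-0.49, 0.853), no normalization (-1.36, 0.119) or the deposited table (-0.23, 0.182). Leaving out arrays gave -0.997 to -0.63. In the same comparison miR-21 was called with the deposited table (-0.92), normexp and the median of the spots (both -0.79) and slide row as a block (-0.66). At -0.78 it was called under all 3 other floors, both stricter filters, the trend and the 2 groups alone. The same held for the 2 groups alone at the lowest floor and with either cTEC array left out. It was not called with quantile normalization (-0.88, 0.212), the 75th percentile over all mouse miRNAs (-1.62, 0.0834) or no normalization (-1.35, 0.14). Nor was it called with no filter (0.203) or the replicate block (0.0816). Leaving out arrays gave -0.85 to -0.68. miR-146a there was -0.83 with the 75th percentile over all mouse miRNAs, -0.55 with no normalization and -0.00899 with the median of the spots, none of them called, and -0.0625 to 0.0622 with arrays left out. miR-146b there was called at the second highest floor (0.52) and with the 2 groups alone at the lowest floor (0.60), and was 0 with each array left out.

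miR-155 in mTECs against cTECs was not called with quantile normalization (1.51, 0.118), at 1.22 with no filter (0.0772) or the 2 groups alone (0.0658), and at 1.65 with the 2 groups alone at the lowest floor (0.0627), and leaving out arrays gave 1.02 to 1.42. miR-146b in cTECs against CD45+ cells turned from 0.02 to -1.12 (75th percentile over all mouse miRNAs), -0.16 (quantile), -1.45 (no normalization), -0.19 (deposited table, called), -0.14 and -0.22 (floors of 129 and 67.0) and -0.22 (2 groups alone at the lowest floor), and was 0.74 and called with normexp. In mTECs against cTECs it turned from -0.02 to 0.91, 0.35, 1.48, 0.22 (called), 0.23 (floor of 342), 0.74, 0.82 and 0.82 under the same settings. With arrays left out it was 0 to 0.0414 and -0.0414 to 0, and its call without cTEC replicate 1 came from groups with no spread at the floor. Since miR-146b was not well above background on any cTEC array, these values and calls show the effect of the processing and are no measure of its level in cTECs.

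The counts of called miRNAs moved by over 1.5 times from 74 in mTECs against CD45+ cells to 119 (deposited table), 118 (normexp), 115 and 140 (floors of 129 and 67.0) and 31 (filter on all 8 arrays, which tests fewer miRNAs), from 95 in cTECs against CD45+ cells to 250, 200, 224 and 53 under the last 4 of these, and from 70 in mTECs against cTECs to 201, 130, 129 and 38, and to 39 with the 75th percentile over all mouse miRNAs. Leaving out arrays gave counts of 82 to 170 in cTECs against CD45+ cells and 58 to 147 in mTECs against cTECs, the highest without cTEC replicate 1. The share of calls that were higher, 37.8%, 34.7% and 71.4% in the 3 comparisons, was 16.4%, 5% and 97.4% with the 75th percentile over all mouse miRNAs, 1.77% and 100% in the comparisons with cTECs with no normalization, 18.6% in cTECs against CD45+ cells with the deposited table, 46.4% in mTECs against cTECs with quantile normalization, 56.8%, 78.8% and 22.4% with normexp, and 54.3%, 62.1% and 55.8% at the lowest floor. The median of all tested miRNAs, 0 in the main analysis, was 0.35, 1.38 and -0.97 with normexp, 0.45, 0.86 and -0.33 at the lowest floor, -0.43 and 0.41 in the comparisons with cTECs with no normalization, and -0.12 in cTECs against CD45+ cells with the 75th percentile over all mouse miRNAs. Deviations of same-numbered arrays from their group means correlated from -0.217 to 0.278, and 2 of 6 CD45+ and mTEC arrays correlated best with their own number. With 2 or 3 arrays per group, these values cannot tell whether same-numbered arrays came from the same pool of mice. With the replicate block, miR-155 in mTECs against CD45+ cells was -0.80 and called (0.0485), and the counts were 69, 86 and 60. The cause of these changes was not tested, and the signal of the cTEC arrays over background limits what could be measured there.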
